A study of Mus musculus with 30 samples.

Results

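The histone-modifying enzymes examined here are 45 genes: 19 histone methyltransferases, 11 demethylases, 6 acetyltransferases, 6 deacetylases and 3 subunits of Polycomb repressive complex 2 (PRC2), namely Eed, Suz12 and Jarid2. Their chromatin was measured in the mouse ventral hippocampus by ATAC-seq, a method in which a transposase inserts adapters where DNA is open. A peak was counted to a gene if it overlapped the RefSeq gene body on GRCm38 extended by 10 kb on both sides. This gave 1066 of the 257149 peak regions, and no peak fell to more than 1 of the genes. All 1066 passed the filter on low counts.

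Each library was made from the nuclei of 1 ventral hippocampus, and the 30 mice formed 4 groups. Handled mice had been lifted by the tail without restraint and were taken from the home cage at 0 min (4 females and 4 males) or 45 min after an acute restraint in a tube began (3 females and 4 males). Chronically restrained mice had been restrained daily for 10 days and were then taken at 0 min (4 females and 4 males) or 45 min into a further restraint (4 females and 3 males). Mice of all groups were housed singly for a day before collection, and the labels name no genetic change. Strain and age are not given in the sources used here. The libraries came from 4 batches that each held all 4 groups.

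Histone modifiers write, erase or bind marks on histone tails. Methyltransferases of the Kmt2 and Setd1 families methylate lysine 4 of histone H3 at promoters and enhancers, PRC2 with its catalytic subunits Ezh1 and Ezh2 places the repressive methylation of lysine 27, and the Kdm enzymes remove methyl groups. Acetyltransferases such as Crebbp and Ep300 acetylate histones at active enhancers and promoters, and deacetylases reverse this. Jarid2 has the fold of a demethylase but no known demethylase activity, and helps to bring PRC2 to chromatin. In the hippocampus several of these enzymes are known for roles in memory.

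Most of these genes began in DNA rich in CG dinucleotides, with a few exceptions. The promoters below, from 250 bases before to 50 after an annotated start (RefSeq, GRCm38.p6), are printed 5′ to 3′ along the gene with each CG in capitals. Kdm4c and Kdm3a are shown with a start that lacked CG dinucleotides beside one that held many, and Jarid2 and Kdm4a because peaks within them are described further on.
Kdm4c, first start: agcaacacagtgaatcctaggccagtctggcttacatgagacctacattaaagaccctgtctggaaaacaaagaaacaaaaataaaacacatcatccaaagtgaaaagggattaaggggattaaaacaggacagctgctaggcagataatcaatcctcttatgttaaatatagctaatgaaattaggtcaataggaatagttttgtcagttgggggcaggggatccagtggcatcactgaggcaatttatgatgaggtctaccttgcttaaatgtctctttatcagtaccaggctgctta
Kdm4c, second start: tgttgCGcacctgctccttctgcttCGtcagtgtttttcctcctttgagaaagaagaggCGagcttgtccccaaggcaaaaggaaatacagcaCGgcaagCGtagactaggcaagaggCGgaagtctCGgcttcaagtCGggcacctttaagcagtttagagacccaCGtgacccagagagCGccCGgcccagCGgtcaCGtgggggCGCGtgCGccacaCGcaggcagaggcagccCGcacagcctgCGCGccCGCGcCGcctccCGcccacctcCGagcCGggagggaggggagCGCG
Kdm3a, internal start: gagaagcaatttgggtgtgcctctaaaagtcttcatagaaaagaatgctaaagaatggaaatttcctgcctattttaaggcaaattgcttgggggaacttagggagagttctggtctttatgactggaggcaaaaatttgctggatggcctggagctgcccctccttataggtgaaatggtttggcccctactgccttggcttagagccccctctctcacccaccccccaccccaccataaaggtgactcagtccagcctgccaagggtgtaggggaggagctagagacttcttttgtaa
Kdm3a, outer start: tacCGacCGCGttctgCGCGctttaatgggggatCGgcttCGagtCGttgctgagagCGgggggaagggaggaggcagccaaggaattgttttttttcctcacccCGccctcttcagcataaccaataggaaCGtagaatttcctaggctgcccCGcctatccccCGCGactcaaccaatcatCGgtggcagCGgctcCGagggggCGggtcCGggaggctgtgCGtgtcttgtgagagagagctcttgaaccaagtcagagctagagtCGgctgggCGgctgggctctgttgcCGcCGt
Jarid2: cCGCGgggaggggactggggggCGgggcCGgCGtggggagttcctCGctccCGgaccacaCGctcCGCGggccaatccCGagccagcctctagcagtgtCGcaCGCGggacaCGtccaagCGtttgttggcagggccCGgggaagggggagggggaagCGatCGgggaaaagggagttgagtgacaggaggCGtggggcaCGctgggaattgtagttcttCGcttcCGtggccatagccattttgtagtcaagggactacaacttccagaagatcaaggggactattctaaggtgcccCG
Kdm4a: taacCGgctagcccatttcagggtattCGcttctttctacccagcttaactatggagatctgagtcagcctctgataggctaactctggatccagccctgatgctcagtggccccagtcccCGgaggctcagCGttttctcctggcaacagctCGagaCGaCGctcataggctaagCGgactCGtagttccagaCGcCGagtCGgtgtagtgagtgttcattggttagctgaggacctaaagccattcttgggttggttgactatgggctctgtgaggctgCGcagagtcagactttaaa
The first Kdm4c sequence (chr4:74242247-74242546, plus strand) held no CG dinucleotide and no peak lay over it. The second (chr4:74251629-74251928), which begins 9382 bases further along, held 28 and was covered by a peak of 11.9 CPM per kb of peak (CPM is the count relative to the scaled library total) with a mean of 1293 counts per library. Kdm3a, on the minus strand, gave the same picture within 1 gene. Its internal start (chr6:71609090-71609389) held no CG dinucleotide and its peak reached 2.17 CPM per kb on a mean of 15.6 counts, whereas the starts 23.8 kb away held 24 (chr6:71632868-71633167) and 40 and shared a peak of 20.1 CPM per kb.

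RefSeq promoters were at hand for 30 of the 45 genes, with 40 promoters in all. Of these, 38 overlapped a peak, against 56.4% of all 32851 mouse promoters in the same set. They held a median of 28 CG dinucleotides per 300 bases, against 7 over all promoters, 18 over all promoters with a peak and 3 over those without one. In the whole set the share with a peak was 19.5% at 0 to 4 CG dinucleotides, 48.9% at 5 to 9, 84.1% at 10 to 19, 96.1% at 20 to 29 and 97.9% at 30 or more. The histone modifiers lay mostly at such CG-rich starts, with 29 of their 40 promoters at 20 or more and all 29 covered. These shares describe promoters and carry no test.

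Besides the first Kdm4c start, the promoter without a peak was a second start of Kat2b, an acetyltransferase, with 6 CG dinucleotides. Its first start, 17155 bases away, held 11 and had a peak of 5.09 CPM per kb. The listed start of Setd5, a SET-domain protein, held 1 CG dinucleotide and had a peak of 2.44 CPM per kb, while the peak at the beginning of the gene reached 15.3. Kdm4a, a demethylase of lysines 9 and 36, held 13 CG dinucleotides (chr4:118179994-118180293, minus strand) under a peak of 19.2 CPM per kb. Jarid2 (chr13:44730524-44730823, plus strand) held 24 under a peak of 15.9 CPM per kb, and Kmt2c, a methyltransferase of lysine 4 at enhancers, held the most, 56, under a peak of 9.59.

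**Figure D1:**
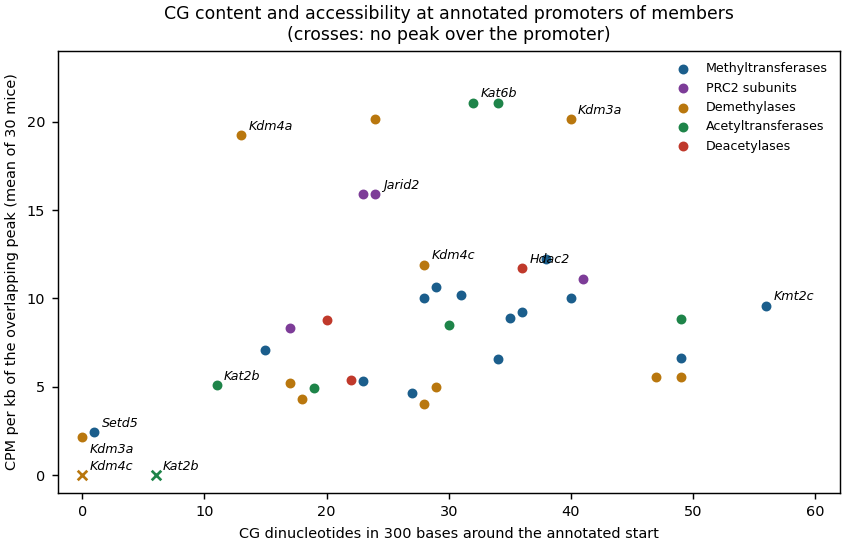
Each point is an annotated promoter of a histone modifier, with the number of CG dinucleotides in 300 bases on the x axis and the mean level over 30 mice of the peak that covers it (CPM per kb of peak) on the y axis; colours give the class and crosses mark promoters without a peak. The Kdm4c promoter with 0 CG dinucleotides and the Kat2b promoter with 6 have no peak, and the Kdm3a promoters lie at 2.17 and 20.1 CPM per kb.

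Letters of known motifs were searched on both strands of the 40 promoters. The GC box GGGCGG, bound by Sp factors, stood in 26 (65.0%), which belong to 20 genes, against 35.7% of all promoters. Some promoters of the same gene overlap, such as those of Kat6b, so the 40 are not all separate. CCAAT stood in 37.5% against 37.4%, the AP-1 motif TGANTCA in 4 (10.0%) against 7.81%, and the E box CACGTG in 7.50% against 7.15%. The YY1 motif was found once, at Dot1l. The cAMP response element TGACGTCA, the ETS motif CCGGAAGT, the palindromic NRF1 motif and the full glucocorticoid response element were found in none, and in 1.79%, 3.89%, 0.971% and 0.0487% of all promoters. The GC box overlaps the CG dinucleotides counted above, and a match or its absence says nothing of binding.

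At the level of whole genes, 44 of the 45 had a peak within 1 kb of a gene end, Kdm4c being the exception. Of several such peaks, that with the highest mean count was taken, whichever end it lay at. At Kdm4a, Dot1l and Ezh1 it lay at the far end from the annotated start, so the levels below mix starts and far ends. These gene-end peaks had a median of 8.49 CPM per kb (range 4.31 to 21.1), against a median of 5.60 over 15551 protein coding genes with such a peak. The median gene lay at percentile 81.4 of those genes. By class the median was 11.1 CPM per kb for the 3 PRC2 subunits, 8.92 for methyltransferases, 8.67 for acetyltransferases, 7.24 for demethylases and 5.68 for deacetylases. The classes overlapped throughout, since each held genes below 9 CPM per kb and each had at least 1 gene above 11.

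Among acetyltransferases the highest level was at Kat6b, a MYST-family enzyme, with 21.1 CPM per kb, and the lowest at Kat2a, a subunit of the SAGA coactivator, with 4.91. Among demethylases it ran from 20.1 at Kdm3a, which acts on lysine 9, to 4.31 at Kdm2b, which acts on lysine 36. Kmt2e, a SET-domain protein of the Kmt2 family, reached 19.3 and Kmt2d, its relative at enhancers, 4.66. Jarid2 reached 15.9, Suz12 11.1 and Eed 8.34, while Ezh2 and Ezh1, the catalytic subunits, reached 10.2 and 5.69. Among deacetylases Hdac2 stood at 11.7 and the peak beside its close relative Hdac1 at 5.19.

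Wider peaks tended to have lower levels, with exceptions. Among high peaks, those at Kdm3a and Jarid2 were 2010 and 2289 bp wide, whereas the highest, at Kat6b, was 5153 bp wide, above the median of 4390.5 bp, and that at Kmt2e 4112 bp. Dot1l, the methyltransferase of lysine 79, had a peak of 31043 bp at 6.43 CPM per kb and Kdm4b one of 28940 bp at 5.00. The widest peak was 16343 bp at acetyltransferases (Kat2a), 15395 bp at deacetylases (Hdac3) and 3974 bp at PRC2 subunits (within Jarid2). Spearman's rho over the 44 genes was −0.43 between width and level, a description over peaks of the same libraries. Of the 44 gene-end peaks 21 overlapped another protein coding gene. The Dot1l peak also covered Plekhj1, Sf3a2, Amh and Jsrp1, so its value is not of the named gene alone. The peaks taken for Kdm3b and Hdac1 lay wholly outside the gene, 252 and 293 bp from its end, over the neighbours Egr1 and Reep2 and over Marcksl1, so their values are of DNA beside the named gene.

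**Figure D2:**
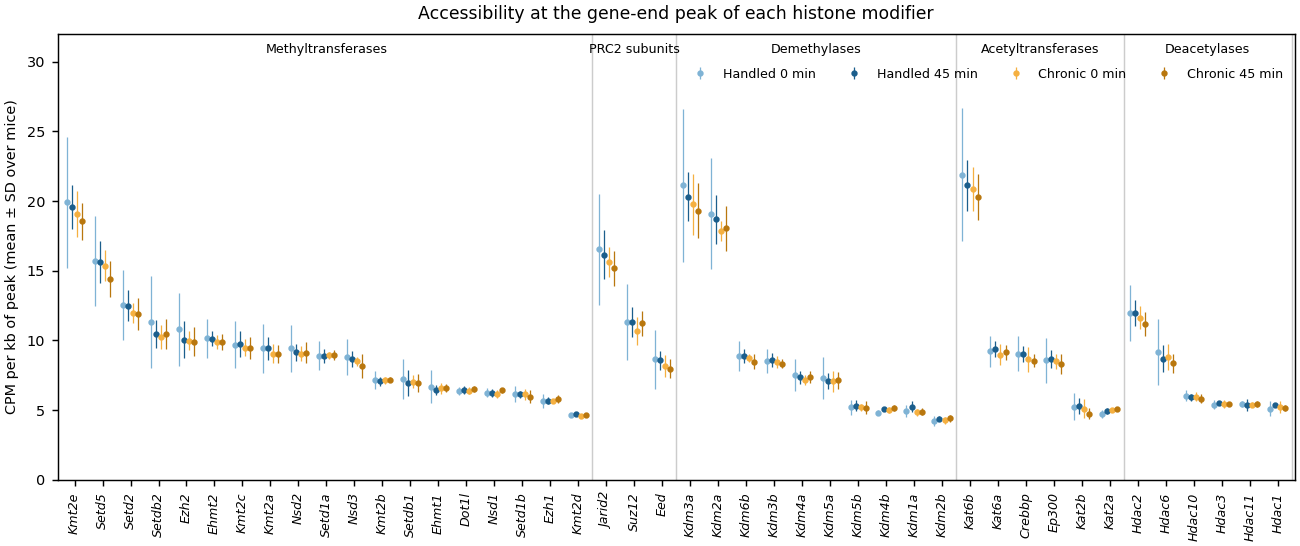
The gene-end peak of each of 44 histone modifiers is shown with its mean level (CPM per kb of peak) ± SD over the mice of each of the 4 groups (8, 7, 8 and 7 mice). Genes are ordered by class and level; Kat6b (21.1), Kdm3a (20.1) and Kmt2e (19.3) are highest, the 4 group means of a gene lie close together, and the SD of handled mice at 0 min is wide at many of the high peaks.

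The number of peaks also differed between genes. Kat6b had 106 peaks in its window, Nsd3, a methyltransferase of lysine 36, had 85 and Jarid2 47, while Hdac2 had 2 and Setdb2, a methyltransferase of lysine 9, had 1. The windows differ in length, since the genes do. Per 10 kb of window these 5 genes had 5.48, 6.16, 2.23, 0.42 and 0.17 peaks, and Kmt2e had the most, 6.36. Of all 1066 peaks 820 (76.9%) lay in a gene body and 104 within 1 kb of an end of their gene. Peaks numbered 484 at methyltransferases, 232 at demethylases, 228 at acetyltransferases, 65 at deacetylases and 57 at PRC2 subunits, and 169 overlapped another protein coding gene. At Kdm3a the top peak held 81.6% of the summed level, and at Nsd3 14.9%.

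Total counts in peaks ran from 26104576 to 55294838 per library, and a median peak of these genes had a mean of 60.7 counts per library. Of marker genes, all 6 of excitatory neurons, 5 of 5 of inhibitory neurons, 4 of 5 of astrocytes, 5 of 5 of oligodendrocytes and 4 of 4 of microglia had a gene-end peak, with medians of 5.80, 3.50, 3.29, 4.12 and 2.89 CPM per kb. Of 3 choroid plexus markers, Ttr and Folr1 had none and Kl had a peak of 3.09. Of 5 genes of other organs, Myh6 (2.11) and Myod1 (3.27) had one too, so a gene-end peak at these levels does not by itself mark a cell type. In bulk tissue, a different share of a cell type and a different accessibility per nucleus cannot be told apart. Animal 45, a handled female at 0 min, had 42.1% of its counts within 1 kb of gene ends, against 37.7% to 40.3% in the other 29 libraries. It was the highest of its group at 38 of the 44 gene-end peaks of histone modifiers, at a median of 1.42 times the median of the other 7 mice (range 0.984 to 1.83).

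Summed over the peaks of a class, accessibility overlapped between the 4 groups. Methyltransferase peaks summed to 3096, 3195 and 3696 CPM (lowest, median and highest) in handled mice at 0 min and to 3152, 3261 and 3418 at 45 min. In chronically restrained mice the sums were 3164, 3241 and 3322 at 0 min and 3184, 3246 and 3372 at 45 min. The 4 ranges overlapped, and the highest value was that of animal 45; without it the first range ended at 3313.

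The same sums were taken over the erasers of methylation. Handled mice had demethylase medians of 2044 CPM at 0 min and 2096 at 45 min, and chronically restrained mice had 2064 and 2073, within ranges of 1961 to 2383, 2005 to 2185, 1993 to 2108 and 2035 to 2188. PRC2 subunits had medians of 219.8, 221.6, 221.4 and 220.4 CPM in the same order, within a range of 210.3 to 294.3 over all mice. The groups overlapped in both classes.

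For acetylation, the medians were 744.8, 765.9, 749.2 and 747.5 CPM at acetyltransferases and 510.3, 518.3, 512.0 and 513.9 CPM at deacetylases. Handled mice at 45 min had the highest median in all 5 classes, by a log2 difference of 0.012 to 0.040 from handled mice at 0 min. Animal 45 was the highest mouse of all 30 in each class. Without it the same differences were 0.021 to 0.051, and the SD of the log2 sum within groups (pooled over the 4 groups) was 0.033 to 0.049. The difference was then 0.427 times this SD at PRC2 subunits and 1.16 to 1.53 times at the other 4 classes, with ranges that overlapped. These sums were not tested.

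**Figure D3:**
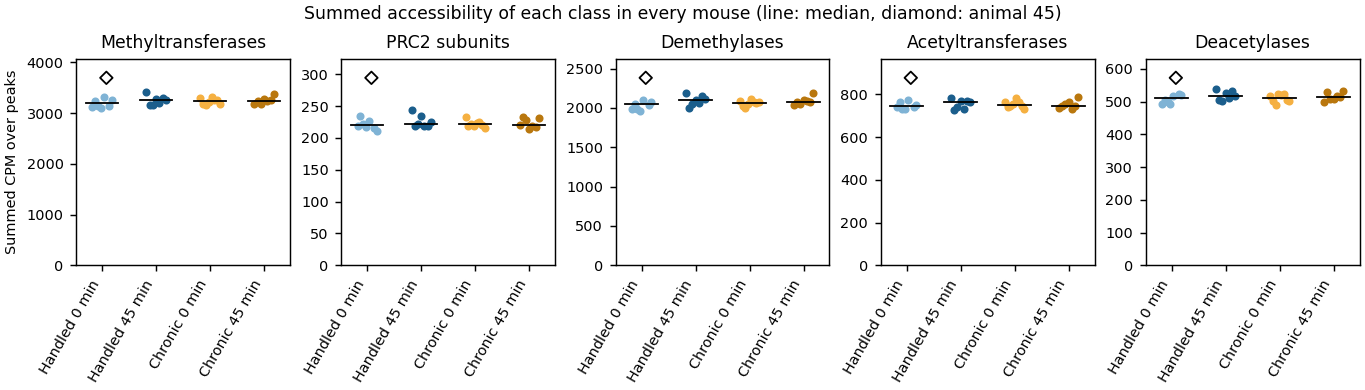
Summed CPM over all peaks of a class in each of the 30 mice, 1 panel per class with its own y axis from 0; points are mice, lines are group medians and the open diamond is animal 45. The 4 groups overlap in each panel, and animal 45 (3696 CPM at methyltransferases) lies above the other mice.

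Acute restraint raised or lowered no peak of a histone modifier past the threshold. Averaged over both histories, with 14 mice at 45 min and 16 at 0 min, 0 of 1066 peaks were called at an adjusted p under 0.05 (edgeR quasi-likelihood test, Benjamini-Hochberg adjustment over all peaks), against 0.116% of all tested peaks. DESeq2 also called 0. An unadjusted p under 0.05 was found at 51 peaks (4.78%; 31 higher and 20 lower), against 7.17% of all peaks. The median log2 change was 0.0070, with 53.3% of peaks positive, against −0.0025 and 49% over all peaks. In females alone and in males alone 0 were called, against 0.00778% and 0.0408% of all peaks.

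By class the median log2 acute change was 0.0014 for methyltransferases, −0.0034 for PRC2 subunits, 0.0117 for demethylases, 0.0038 for acetyltransferases and 0.0378 for deacetylases. Peaks with a positive change made up 51%, 49.1%, 58.2%, 51.8% and 61.5%. The quartiles of the change of single peaks, over all peaks, were −0.071 and 0.062. A median over many peaks varies less than a single peak, so these quartiles do not place the class medians, which were not tested. At gene ends the change ran from −0.051 to 0.067, with 26 of 44 genes positive (23 with DESeq2's size factors) and none at an unadjusted p under 0.05 in edgeR; DESeq2 had 1 and called none. The median at gene ends moved with animal 45, the only single library left out, and with batches and sex. This held at these genes and over all gene-end peaks alike. Of the fits given next, the median was negative in females alone and without batch 3. Without animal 45 the median went from 0.0052 to 0.027 (37 of 44 positive), against a move from 0.0037 to 0.015 over all gene-end peaks. In handled mice it went from 0.012 to 0.060 (43 of 44 positive), against 0.0042 to 0.030. Males alone had a median of 0.033 (38 positive) against 0.022, and females alone −0.014 (16 positive) against −0.0064. Without batch 3 it was −0.022 (13 positive) against −0.0033, and without batch 4 0.029 (35 positive) against 0.015. None was called in these fits.

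**Figure D4:**
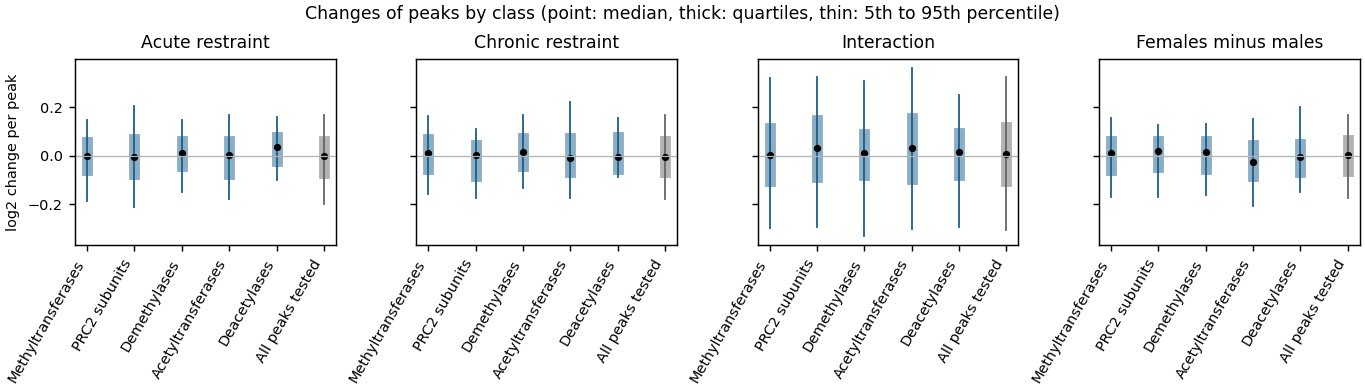
Log2 changes per peak for acute restraint, chronic restraint, their interaction and females minus males, by class and for all 257143 tested peaks; points are medians, thick bars quartiles and thin lines the 5th to 95th percentiles. The bars of each class straddle 0 in every panel, as do those of all peaks.

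The peak with the smallest acute p lay within Kdm4a (chromosome 4, 118145847 to 118149463). In handled mice its lowest, median and highest level was 13.1, 15.2 and 15.9 CPM at 0 min and 15.7, 16.7 and 17.5 CPM at 45 min. After chronic restraint the values were 12.1, 14.3 and 17.4 CPM at 0 min and 14.6, 16.3 and 18.1 CPM at 45 min. The ranges overlapped slightly in handled mice, where 6 of 7 mice at 45 min lay above all 8 at 0 min, and broadly in chronically restrained mice, where 2 of 7 did. The log2 change was 0.17 ± 0.046 (SE) with an adjusted p of 0.113 (edgeR), positive in 4 of 4 batches (0.13, 0.24, 0.10 and 0.28). It was called without animal 45 (0.18, adjusted p = 0.0159), with total count scaling (adjusted p = 0.0330) and with a covariate for the share of counts in the top 1% of peaks or at gene ends (adjusted p = 0.0166 and 0.0037). Of all peaks 0.265%, 0.204%, 0.687% and 0.685% were called in these 4 fits. Over all alternatives the adjusted p ran from 0.0037 to 0.996 and the change from 0.14 to 0.21. The gene's promoter peak, whose sequence is printed above, lies elsewhere. Here and at the peaks named below, batch signs and counts of separated mice come from the libraries that gave the small p. They add no support of their own.

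A relative, Kdm4b, which acts on the same lysines, had the second smallest p among peaks with a higher level. Its peak (chromosome 17, 56346466 to 56358080) went from a mean of 52.5 ± 2.5 CPM (SD, n = 8) to 56.5 ± 1.3 (n = 7) in handled mice. In chronically restrained mice it went from 53.9 ± 3.2 (n = 8) to 58.3 ± 3.1 (n = 7). The ranges were 49.02 to 55.9 and 54.2 to 58.4 CPM in handled mice, and 50.2 to 59.98 and 54.7 to 64.4 CPM after chronic restraint, so the groups overlapped. The change was 0.11 ± 0.034 (adjusted p = 0.283, edgeR), positive in 4 of 4 batches, and it was called with either covariate for the make-up of the library (adjusted p = 0.0194 and 0.0037); over all alternatives the change ran from 0.088 to 0.12 and the adjusted p from 0.0037 to 1.00. The third was a peak of Kdm5b, a demethylase of lysine 4, with 0.39 ± 0.13 (adjusted p = 0.313) on a mean of 31.97 counts.

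Among peaks with a lower level at 45 min, the smallest p belonged to Nsd2, a methyltransferase of lysine 36 (−0.41 ± 0.13, adjusted p = 0.293, mean of 25.6 counts). Next came a peak within Kdm3b, a demethylase of lysine 9 (−0.21 ± 0.071, adjusted p = 0.339). The third lay within Jarid2 (chromosome 13, 44799659 to 44800606), with 2.26, 2.98 and 3.67 CPM (lowest, median and highest) in handled mice at 0 min and 2.08, 2.31 and 2.55 CPM at 45 min. In chronically restrained mice it had 2.18, 2.80 and 3.43 CPM at 0 min and 1.98, 2.60 and 3.19 CPM at 45 min. The groups overlapped, and all 7 handled mice at 45 min lay below the median of those at 0 min. The change was −0.24 ± 0.080 (adjusted p = 0.356, edgeR), with within-batch values of −0.36, −0.37, −0.13 and 0.038. The compact peak at the start of Jarid2 had a change of −0.014 ± 0.063 (adjusted p = 0.986).

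Taken separately, neither history had a call. In handled mice 0 peaks of histone modifiers were called by edgeR, against 0.0109% of all peaks, and 45 had an unadjusted p under 0.05 (4.22% against 5.52%), with 49.1% of peaks positive against 47.7% of all peaks. The smallest p for a higher level was at a peak of Ehmt2, a methyltransferase of lysine 9, where the mean went from 0.589 ± 0.17 to 0.898 ± 0.17 CPM (0.62 ± 0.18, adjusted p = 0.514). That for a lower level was the Jarid2 peak (−0.34 ± 0.11, adjusted p = 0.651). In chronically restrained mice 0 were called, against 0.00272% of all peaks, and 37 had an unadjusted p under 0.05 (3.47% against 4.73%), with 52.6% positive against 50.3%. Here a peak of Kat6a, a MYST-family acetyltransferase, led those with a higher level (0.23 ± 0.072, adjusted p = 0.868) and a peak beside Kmt2e that overlaps Srpk2 those with a lower level (−0.52 ± 0.17, adjusted p = 0.888). DESeq2 called 0 in either history.

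Whether the acute response differed between histories was tested by the interaction. No peak of a histone modifier passed (edgeR and DESeq2, 0 each), nor did any of all peaks (percent called 0), and 31 peaks had an unadjusted p under 0.05 (2.91% against 3.03%), with 53.6% of peaks positive against 52.4%. The smallest p was at a short peak within Kat6a (chromosome 8, 22942326 to 22942527). Handled mice had a mean of 0.491 ± 0.14 CPM at 0 min and 0.706 ± 0.20 at 45 min, chronically restrained mice 0.629 ± 0.12 and 0.476 ± 0.071 CPM. At 45 min 6 of 7 handled mice lay above the 0 min median and 0 of 7 chronically restrained mice did. The interaction was −0.95 ± 0.28 (unadjusted p = 9.4e-04, adjusted p = 1, edgeR) on a mean of 22.9 counts.

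Other peaks named for the interaction went in both directions. Those with a more positive response after chronic restraint lay within Kdm3b (0.57 ± 0.18), Hdac1, a deacetylase (0.50 ± 0.18), and Kat6a, at another peak (0.26 ± 0.10). Those with a more negative response lay within Kmt2c (−0.55 ± 0.21) and Ehmt2 (−0.67 ± 0.26). The adjusted p was 1 at each (edgeR), and Kat6a thus gave peaks on both sides.

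Chronic restraint left no called difference. Averaged over both times, edgeR and DESeq2 called 0 of the 1066 peaks. Over all peaks edgeR called 0 (percent called 0 at 0 min, at 45 min and averaged), and DESeq2 called 1 for the average and 0 at either time. An unadjusted p under 0.05 was found at 53 (4.97% against 5.44%), 33 higher and 20 lower, and 52.4% of peaks were positive against 48% of all peaks. At 0 min 47 and at 45 min 42 had one (4.41% against 4.60%, and 3.94% against 3.78%), with 0 calls by either tool, and 49% and 53.8% of peaks were positive against 46.6% and 49.7%. Median changes by class for the average lay between −0.0091 at acetyltransferases and 0.0154 at demethylases, against −0.0049 over all peaks.

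A peak within Kmt2a, the methyltransferase of lysine 4 also called MLL1, had the smallest p (chromosome 9, 44831862 to 44833713). Handled mice had 2.90, 4.04 and 4.44 CPM (lowest, median and highest) at 0 min and 2.99, 4.02 and 5.02 CPM at 45 min. Chronically restrained mice had 4.17, 4.93 and 5.93 CPM at 0 min and 3.86, 4.88 and 5.65 CPM at 45 min. At 0 min 7 of 8 chronically restrained mice lay above all 8 handled mice, and at 45 min 2 of 7 lay above all 7. The change was 0.29 ± 0.067 (unadjusted p = 3.7e-05, adjusted p = 0.771, edgeR), positive in 4 of 4 batches (0.29, 0.41, 0.20 and 0.26). The peak was named for this p, so the batch signs and counts of mice add no support of their own. The value of animal 45, 2.90 CPM, was the lowest of its group, and over all alternatives, that without this mouse included, the change ran from 0.19 to 0.44 and the adjusted p from 0.207 to 1.00. At 0 min alone this peak also had the smallest p (0.36 ± 0.092).

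The peaks named next for chronic restraint did not form a class. Higher levels were seen 6581 bp from Crebbp, within its neighbour Trap1 (0.40 ± 0.12), and within Kat6b (0.34 ± 0.11). Lower levels were seen at another peak within Kat6b (−0.24 ± 0.087), within Setd5 (−0.19 ± 0.069) and within Nsd3 (−0.35 ± 0.14). The adjusted p lay between 0.857 and 0.901 at these 5 (edgeR). At 0 min the lower peak with the smallest p was within Nsd2 (−0.54), and at 45 min peaks within Kmt2c (0.64) and Kat6a (−0.61) were named.

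The Kmt2c peak (chromosome 5, 25300221 to 25300662) was the one peak named at which the ranges of handled and chronically restrained mice at the same time did not overlap. At 45 min handled mice had 0.490, 0.714 and 0.912 CPM (lowest, median and highest) and chronically restrained mice 0.953, 1.09 and 1.43. All 7 chronically restrained mice lay above all 7 handled mice, while at 0 min the groups overlapped. The peak was named for its small p in this same comparison at 45 min, so the separation adds no support of its own. How many of all peaks separate in this way was not counted. The change at 45 min was 0.64 ± 0.18 (adjusted p = 1.00, edgeR; percent called 0 over all peaks) on a mean of 33.9 counts.

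**Figure D5:**
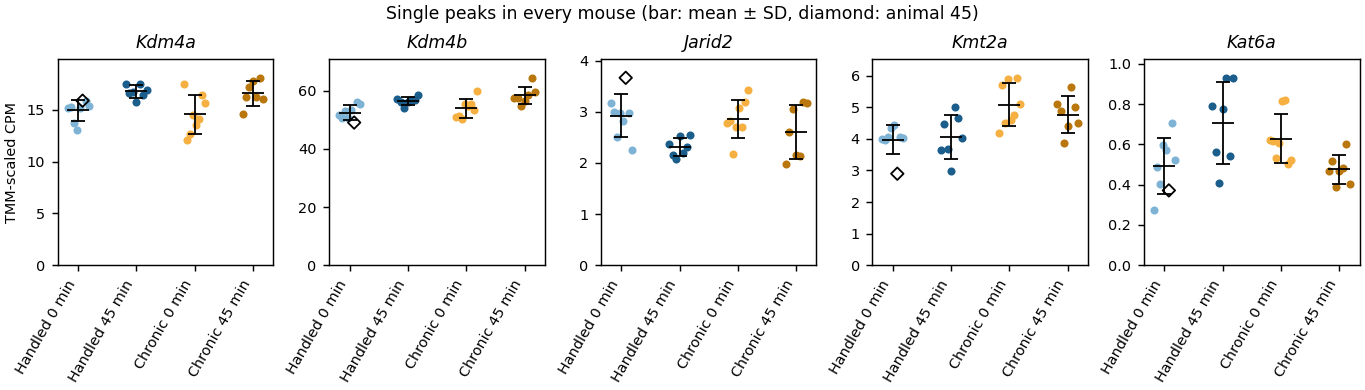
TMM-scaled CPM of the peaks within Kdm4a, Kdm4b, Jarid2, Kmt2a and Kat6a in every mouse, by group; bars are mean ± SD (8, 7, 8 and 7 mice) and the open diamond is animal 45. The Kdm4a and Kdm4b peaks are higher at 45 min in both histories, the Kmt2a peak is higher in chronically restrained mice, and the groups overlap at each peak; none passed the adjusted threshold.

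For chronic restraint too, the median at gene ends moved with animal 45 and with sex. The change with chronic restraint was negative at 35 of 44 genes, with a median of −0.037, against −0.015 over all 26740 gene-end peaks, and 0 had an unadjusted p under 0.05. Without animal 45 the median was −0.0046 (27 negative), against 0.00046 over all gene-end peaks. At 0 min alone it was −0.035 (36 negative) with this mouse and 0.031 (37 positive) without it, against −0.016 and 0.016. At 45 min, where it is in neither group, the median was −0.043 (33 negative), against −0.016, and in the fit without it −0.040 (31 negative), against −0.014.

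In females and males the medians at gene ends had opposite signs, at these genes as over all gene-end peaks. In females the median for chronic restraint averaged over times was −0.13 (39 of 44 negative), against −0.042 over all gene-end peaks. An unadjusted p under 0.05 was found at 23 of the 44 (52.3%), against 21.9% of all gene-end peaks. At 45 min the median was also −0.13 (38 negative), against −0.048, with 12 at an unadjusted p under 0.05 (27.3% against 13.8%). Animal 45 is in neither group compared at 45 min, but it enters this fit through the term for its batch, which held no handled female at 45 min. It is also among the handled females of the average, and females were not fitted without it. In males the median was 0.034 averaged (35 positive), against 0.019, and 0.019 at 45 min (27 positive), against 0.012. None of the 44 was called in these fits, and the difference between the sexes was not tested. With the gene-end share of the library as a covariate, the median over both sexes was −0.0048 averaged, against −0.0012. The interaction of history and acute restraint had a median of −0.012 at gene ends (29 negative), against 0.0010. It was −0.062 without animal 45 (41 negative), against −0.029, and 0.020 without batch 2 (28 positive), against 0.017.

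Between the sexes, the log2 difference at gene ends (females minus males) was positive at 41 of 44 genes, with a median of 0.049, against 0.027 over all gene-end peaks. The median was 0.019 without animal 45 (36 higher), 0.015 without batch 4 (33 higher) and 0.087 without batch 3 (43 higher), against 0.012, 0.010 and 0.041 over all gene-end peaks. With the gene-end share of the library as a covariate it was −0.0035 (19 higher), against −0.00066. The variation over the 30 mice was greater at compact peaks: the coefficient of variation ran from 2.77% at Kmt2d, whose peak is 19342 bp wide, to 17.4% at Setdb2, whose peak is 1007 bp wide (Spearman's rho −0.83 with width over 44 genes, a description). Without animal 45 the range was 2.82% to 12.1% and rho −0.89.

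Over all their peaks, 0 of 1066 differed between the sexes (edgeR and DESeq2), against 0.0350% of all peaks, and 57 had an unadjusted p under 0.05 (5.35% against 5.37%), with 52.3% of peaks higher in females against 51.9%. The smallest p was at a peak within Kdm3a (chromosome 6, 71609757 to 71610573), 618 bases from the start without CG dinucleotides printed above. Females had 1.93, 2.35 and 3.39 CPM (lowest, median and highest) and males 1.60, 1.94 and 2.96. The ranges overlapped, with a change of 0.28 ± 0.081 (adjusted p = 0.625, edgeR) that was positive in 4 of 4 batches. Hdac6, a cytoplasmic deacetylase on the X chromosome, had positive changes at 6 of 6 peaks, of which only 1 overlapped the gene body. An unadjusted p under 0.05 (edgeR) was found at 5 of the 6, and none was called. The smallest p was at a peak over its neighbour Pcsk1n (0.20 ± 0.061, adjusted p = 0.666, edgeR). A peak within Kat6a was also higher in females by 0.22 ± 0.083, and peaks within Nsd3 (−0.31 ± 0.098), Nsd2 (−0.40 ± 0.14) and Setd5 (−0.31 ± 0.11) were lower, with adjusted p from 0.761 to 0.906.

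The acute response did not differ between the sexes at any of these peaks past the threshold (edgeR, 0 calls, against 0.000389% of all peaks; 35 at an unadjusted p under 0.05, 3.28% against 3.72%; 43.2% positive against 48%; DESeq2 was not run on this contrast). The smallest p values were at a peak within Kdm5b (−0.81 ± 0.25, females minus males) and another within Jarid2 (0.56 ± 0.19), both with an adjusted p of 1.00.

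Among 64 further genes of histone modification, with 1293 peaks, the main edgeR analysis called 5, all on the X chromosome and all between the sexes. Kdm6a, the demethylase of lysine 27, and Kdm5c, a demethylase of lysine 4, are both known to escape X inactivation. The peak near the start of Kdm6a had 42.1, 46.3 and 76.2 CPM (lowest, median and highest) in 15 females and 23.4, 26.8 and 29.3 CPM in 15 males. The sexes did not overlap, with a change of 0.89 ± 0.053 (adjusted p = 3.6e-16, edgeR). The peak at the start of Kdm5c had 28.4 to 41.4 CPM in females and 19.1 to 24.7 in males, again without overlap (0.50 ± 0.043, adjusted p = 4.8e-15). The highest values in both were those of animal 45. In all 2 of 2 Kdm6a peaks and 3 of 16 Kdm5c peaks were called, each higher in females, against 0.035% of all peaks called between the sexes. Of these 5 peaks, 3 kept their call without batch 1, without batch 2 and without batch 3. The peaks at the starts of Kdm6a and Kdm5c were among them each time. The other X-linked genes of this list, Suv39h1, Rbbp7, Phf8 and Hdac8, had no call. Their median changes were 0.11, 0.13, 0.028 and 0.024.

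For acute restraint, 0 of the 1293 peaks were called (edgeR), 71 had an unadjusted p under 0.05 (5.49% against 7.17%), and the smallest adjusted p was 0.0519 at a peak within Jmjd1c, a relative of Kdm3a and Kdm3b. There the means at 0 and 45 min were 4.34 ± 0.60 and 5.15 ± 0.34 CPM in handled mice, and 4.11 ± 0.48 and 4.97 ± 0.55 CPM after chronic restraint (0.27 ± 0.063). This peak was called in 7 of 16 alternatives, among them DESeq2 (adjusted p = 0.0159), the fit without animal 45 (0.0132) and that with mice matched by batch and sex (0.0443). Over all 16 the change ran from 0.24 to 0.30 and the adjusted p from 0.0110 to 0.949. Other peaks of these genes were also called in some alternatives, up to 5 of the 1293 with either covariate. With the covariates for the top 1% share and the gene-end share, 0.687% and 0.685% of all peaks were called. The class IIa deacetylases, which shuttle between nucleus and cytoplasm, had 1 acute call in the main analysis. A peak within Hdac9 was the 1 of their 234 peaks called (adjusted p = 0.0022, edgeR), against 0.116% of all peaks, and 30 of the 234 had an unadjusted p under 0.05 (12.8% against 7.17%; 15 higher and 15 lower). Its means at 0 and 45 min were 4.51 ± 1.2 and 3.04 ± 0.48 CPM without and 4.25 ± 0.90 and 3.09 ± 0.59 CPM with chronic restraint before. Its change was −0.50 ± 0.087, and −0.45 without animal 45, whose 7.33 CPM was the highest of its group (adjusted p = 3.6e-05). The call was lost without batch 2 (−0.39, adjusted p = 0.401) and in females alone (−0.41, adjusted p = 0.701), and it held in the other 14 alternatives, with adjusted p up to 0.0107. A peak of Hdac4, higher at 45 min, was also called in some alternatives. Among them was the fit without animal 45 (0.21, adjusted p = 0.0169, edgeR), in which 0.265% of all peaks were called. With either covariate 3 of the 234 were called, a lower peak of Hdac5 included.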

How the data were processed

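ATAC-seq libraries were made from ventral hippocampus nuclei of 30 mice. The deposited file holds raw counts, whole numbers per peak region in 1 set of regions common to all libraries, per the file headers. Genrich 0.6.1, Bowtie2, Trimmomatic and Picard, and the build GRCm38, are named in the submitters' processing notes; how regions were merged, and whether reads, fragments or insertions were counted, is not given in the sources used here. A further 2 columns fitted no sample's labels and were left out.

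Peaks were joined to 45 genes by coordinates in a RefSeq gene table (GRCm38.p6; all matched). Transcription start sites came from RefSeq promoters, which exist in the table used for 30 of these genes. Levels of whole genes were read at a peak within 1 kb of either gene end. This was done for all genes alike, so these levels mix starts and far ends of genes. Where several peaks lay at gene ends, that with the highest mean count was taken. No genome sequence was used, so peaks were not searched for motifs.

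Counts were tested in edgeR 4.0.16 (R 4.3.3). filterByExpr removed 6 of 257149 peaks, libraries were scaled by TMM, and a robust quasi-likelihood model held the 4 groups, sex and batch in all 30 libraries. The acute effect by sex came from 8 cells of group and sex with batch. P-values were adjusted by Benjamini-Hochberg over the 257143 tested peaks, with a threshold of 0.05 for a call. Each library is a separate animal, so p-values measure the spread between animals. DESeq2 1.42.0, other scalings and filters, and fits without single batches, without 1 sex or without animal 45 were alternatives. The fitting script was tested on simulated data. Within-batch changes are differences between mouse means of log2(CPM + 0.1), not adjusted for sex or group. Depth limits each value, since a median peak has 60.7 counts per library. Levels between genes are compared per kb of peak.

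The peaks named are every called one; per direction the 3 of smallest p, 1 per gene, for the averaged acute effect, averaged chronic effect, interaction and sex; and 1 per direction for other comparisons. Further genes of histone modification are named if called, or for the smallest acute p. Members and lists were chosen with earlier results of these data known.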

Additional observations from a re-analysis of the deposited data

Results flagged for a closer look

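A mouse stood apart from the others of its group in 9 of the 136 sets of 7 or 8 values examined (Dixon's test, for which chance gives about 1 in 20), and 6 of the 9 were animal 45, a handled female at 0 min. Its summed CPM was 3696 at methyltransferases, against 3096 to 3313 in the other 7 mice, 294 at PRC2 subunits (210.3 to 234.8), 2383 at demethylases (1961 to 2101), 877 at acetyltransferases (731 to 774) and 573 at deacetylases (492 to 523). At the peak within Kmt2a that had the smallest p for chronic restraint it had the lowest level of its group, 2.90 CPM against 3.98 to 4.44. This library also had the largest share of counts at gene ends, 42.1%, and the part of that share in these values was not tested. Among chronically restrained mice at 45 min, animal 66 had a demethylase sum of 2188 CPM against 2035 to 2098, and animal 4 had 1.43 CPM at the Kdm5b peak named for acute restraint against 0.570 to 0.919. Among those at 0 min, animal 7 had 1.30 CPM at the Kmt2c peak named for chronic restraint at 45 min against 0.606 to 0.889.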

How the results depend on the processing

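For the acute effect averaged over histories, the count of called peaks of histone modifiers was 0 in the main analysis, 1 with total count scaling, 1 without animal 45, 2 with the share of counts in the top 1% of peaks as a covariate and 2 with the share at gene ends as a covariate. All of these calls were the peaks within Kdm4a and Kdm4b, with a higher level at 45 min, and the calls over all peaks under those settings were 0.204%, 0.265%, 0.687% and 0.685%; the cause was not tested. With total count scaling the log2 difference of the acetyltransferase sum between handled mice at 45 and 0 min was 0.0053 in place of 0.040, a move slightly above the pooled SD within groups without animal 45 (0.0348) and below that with it (0.0546). The other 200 values of counts and class levels under alternatives stayed within 1.5 times the main count or within the SD without animal 45, and no named peak changed sign while called. Of the values of single named peaks of the 45 genes 474 kept their side of the threshold. The other 6, those of Kdm4a and Kdm4b, came to pass it. Of the further genes, the Jmjd1c peak came to pass it for acute restraint in 7 of 16 alternatives and the Hdac9 peak lost its call in 2. Between the sexes, the 5 calls at Kdm6a and Kdm5c became 3 without batch 1, without batch 2 and without batch 3. They became 4 with the filter at a mean of 50 counts, and 6 with either covariate. At the 45 genes, the counts for chronic restraint, the interaction, either history alone and the sexes were 0 under every alternative run. Animal numbers pair no mice, since each occurs in 1 group, but most mice can be matched by batch and sex: with batch and sex as a replicate block, added after the data were seen, 0 peaks of the 45 genes were called in any of the 7 comparisons, and the Jmjd1c peak was (adjusted p = 0.0443). Depth limits the short peaks: 450 of the 1066 had a mean under 50 counts per library, among them the Kat6a peak named for the interaction. Class levels without animal 45 were added after the data were seen.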
